A study of Mus musculus with 2 samples.

Results

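Serine proteases and the protein families that restrain them were followed in uterine epithelial cells of mice with and without Msx1 and Msx2. The members were all probe sets that name 1 gene of the Prss, Tmprss, Klk, Serpin, Spink or Wfdc families, except Prss8 and Serping1. The rule takes them by gene symbol, but it was set with earlier results of these data known. The rule found 158 of the 45101 probe sets on the array, for 120 genes. Each probe set has a signal on both arrays.

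RNA came from epithelium that had been separated from uteri of C57BL/6 mice at day 4 of pregnancy, the day of uterine receptivity in this species. One array held the Msx1Msx2 floxed control and 1 array the Msx1Msx2-null sample. The null mice came from crosses of Msx1Msx2 floxed mice with PRcre mice, which express Cre recombinase under the progesterone receptor gene. PRcre acts in uterine cells that make this receptor, stroma included, so the ablation was not restricted to the epithelium. The age of the mice is not given in the sources used here. The labels name 5 mice per genotype in 1 place and 4 in another, and do not say whether their RNA was pooled. Females of both genotypes had mated with fertile males, and pieces of uterus were digested in 1% trypsin for 90 min, followed by 30 min without further warming, before the epithelium was squeezed out. The added trypsin is a protein and is not what the probe sets measure, but its effect on protease genes in the cells was not tested. There was 1 array per genotype, so differences could not be set against replicates and were not tested.

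Serine proteases cut proteins with an active-site serine. Tmprss proteases are anchored in the cell membrane, most Prss and Klk (kallikrein) proteases are secreted, and many are made as inactive precursors that another protease cuts. Most serpins are suicide inhibitors that trap a protease by changing shape, although several have lost that activity. Spink proteins carry Kazal domains and Wfdc proteins carry whey acidic protein domains; both are small, secreted and held together by disulfide bonds, and many block trypsin-like or elastase-like enzymes. In the uterus these families act in luminal fluid, at the apical surface and in the matrix, where protease activity has long been linked to hatching and attachment of the blastocyst.

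The 250 bases before the annotated start are shown for 3 genes that were higher in the null and 2 that were lower, so that the regulatory sequence can be read beside the signals described later. They are examples picked without a fixed rule, and other genes past 2-fold also had a listed window. The sequences are from RefSeq, build GRCm38.p6, written 5′ to 3′ on the gene's strand. Capitals mark every match, on either strand, to 3 motifs. These were TAATTG, a core that Msx-type homeodomains bind, the nuclear receptor half-site AGGTCA, and the core promoter element TATAAA. No match overlapped another in these windows.

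Wfdc15b, chr2:164221664-164221913, strand -: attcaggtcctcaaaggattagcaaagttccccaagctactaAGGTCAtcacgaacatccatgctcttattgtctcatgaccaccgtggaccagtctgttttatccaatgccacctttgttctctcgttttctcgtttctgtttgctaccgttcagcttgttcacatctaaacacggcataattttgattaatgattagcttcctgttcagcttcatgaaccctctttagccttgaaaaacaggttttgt

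Serpini1, chr3:75557243-75557492, strand +: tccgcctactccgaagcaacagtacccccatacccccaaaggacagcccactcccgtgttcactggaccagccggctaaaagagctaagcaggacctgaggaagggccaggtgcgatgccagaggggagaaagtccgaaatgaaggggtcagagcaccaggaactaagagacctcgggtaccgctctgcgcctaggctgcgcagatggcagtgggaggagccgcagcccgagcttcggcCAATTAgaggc

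Wfdc18, chr11:83708754-83709003, strand +: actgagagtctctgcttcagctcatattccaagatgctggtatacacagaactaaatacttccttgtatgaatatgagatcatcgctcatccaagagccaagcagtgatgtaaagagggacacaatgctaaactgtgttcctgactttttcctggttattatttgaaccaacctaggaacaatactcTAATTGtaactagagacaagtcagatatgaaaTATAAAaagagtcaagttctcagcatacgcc

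Prss23, chr7:89527188-89527437, strand -: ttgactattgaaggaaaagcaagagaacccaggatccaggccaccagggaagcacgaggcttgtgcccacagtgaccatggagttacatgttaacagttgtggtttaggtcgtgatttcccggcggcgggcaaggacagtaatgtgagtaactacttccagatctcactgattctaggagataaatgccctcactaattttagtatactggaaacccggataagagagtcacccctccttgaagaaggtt

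Serpina1b, chr12:103738190-103738439, strand -: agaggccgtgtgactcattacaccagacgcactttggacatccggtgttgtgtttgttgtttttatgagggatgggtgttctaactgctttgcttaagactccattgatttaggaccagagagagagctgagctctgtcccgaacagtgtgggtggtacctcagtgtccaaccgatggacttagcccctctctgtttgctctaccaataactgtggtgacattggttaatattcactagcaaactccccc

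The Wfdc18 window held TAATTG 63 bases before the start and TATAAA 31 bases before it. The Serpini1 window held TAATTG on the opposite strand 11 bases before the start, and the Wfdc15b window held AGGTCA 208 bases before it. The Serpina1b window held none of these motifs. For Prss23, with 7 listed starts, the window of the most upstream start is shown, and it held none either; another of its starts held AGGTCA. Over all 32851 listed windows of this length, 7.17% held TAATTG, 14.0% held AGGTCA and 12.4% held TATAAA. Of the measured members 28 had a listed window. Of these, 6 held TAATTG at any start (21.4%, against 8.30% of all genes with a listed window), 10, Prss23 among them, held AGGTCA (35.7%, against 15.8%) and 5 held TATAAA (17.9%, against 14.3%). The 6 with TAATTG were Serpini1, Wfdc18, Wfdc17, Prss53, Serpinb6b and Serpinb12, whose log2 differences ran from -0.71 to 2.94. Of the genes past 2-fold whose windows are not shown, Serpinb8 and Serpinh1 held none of these motifs at any start. Wfdc3 held AGGTCA alone. The windows shown therefore do not give the share of motifs among the higher genes. All of these are letter matches in a window and not binding sites.

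Values are MAS5 signals, a background-corrected brightness that is scaled per array and can be compared for 1 probe set between arrays, not between probe sets. Summed signals of marker lists therefore follow mainly their brightest probe sets. A gene was called measured when its probe set reached the floor of 21.1, the median of all signals, on at least 1 array. If the other array lay below the floor, the floor stood in for its signal, and such folds are written "at least". Log2 differences are the null signal minus that of the control, and the threshold was 2-fold. Pairs of signals are given with the control first. Msx1 read 3474 (control) and 42.3 (null) at 1 probe set and 1658 and 28.1 at the other, in the direction of the labels. Msx2 read 63.4 and 23.6 at 1 probe set and was below the floor on both arrays at the other. The deleted exons are not named in the labels, so these signals check them only as far as the probe sets lie there. Luminal epithelial markers were bright on both arrays: 12 of 12 with a probe set were measured, 1 was at least 2-fold higher (Ltf), and their summed signal was 43834 (control) and 52612 (null). Stromal markers were present too, with 12 of 13 measured and a sum of 10098 and 12775.

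Most of these genes were below the floor in this epithelium. Of 120 member genes 36 (30.0%) were measured, whereas 64.1% of all 18193 genes were. Klk genes were the family with the smallest measured share, at 3 of 21, followed by 7 of 30 Prss genes, 3 of 12 Tmprss genes, 12 of 39 serpins and 3 of 7 Spink genes. Wfdc genes were measured in 8 of 11 cases. Of the measured genes 27 reached the floor on each array, 5 on that of the control alone and 4 on that of the null alone. The 84 others have no difference here, among them Prss28, which encodes an implantation serine proteinase of the uterine glands, at 2.98 (control) and 1.22 (null).

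Among the 36 measured genes, 7 had a null signal at least 2-fold above the control and 3 at least 2-fold below it. Over all 11662 measured genes, 7.73% were past 2-fold on the higher side and 4.75% on the lower side (12.5% in all), against 19.4% and 8.33% of the members. The median difference of the members was 0.06, close to 0.08 over all measured genes, and the mean difference was 0.28 against 0.10. Their median absolute difference was 0.76, and that of all genes was 0.35. The higher genes were Wfdc15b, Wfdc18, Wfdc3, Spink8, Serpini1, Serpinb8 and Serpinh1, and the lower ones Prss23, Serpina1b and Spink1. No protease of the Tmprss, Prss or Klk families was called 2-fold higher (0 of 13 measured), while 7 of 23 measured genes of the Serpin, Spink and Wfdc families were. This split depended on the threshold. Tmprss4, at a log2 difference of 0.99, and Prss29, at a bound of 1.00, fell just short, and both passed 2-fold with array medians and with loess. Wfdc12, at a bound of 0.99, also passed it with array medians. The difference between these shares was not tested. By probe sets, 10 of 50 measured were at least 2-fold higher and 6 lower, where 6.25% and 6.49% of all named probe sets were.

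The members at 2-fold lay mainly among those with a higher mean signal over the 2 arrays. When all measured genes were divided into 3 equal bins of mean signal, with borders at 99.2 and 368, 4 of 9 members in the highest bin and 4 of 9 in the middle bin were at least 2-fold different. In those bins 7.54% and 12.3% of all genes were. In the lowest bin 2 of 18 members were, and 17.6% of all genes. A high signal on 1 array raises the mean: Serpini1 and Serpinb8, in the middle bin, had control signals of 36.1 and 66.1. Signals set to the floor also shorten differences among dim genes. Probe sets of 1 gene differed among themselves with a standard deviation of 0.38 (log2) over 4645 genes, and of 0.65 over the 9 member genes with several such probe sets; this holds no spread between animals. The balance of higher and lower genes depended on the scaling of the arrays. After scaling to the 18 spike-in probe sets of the hybridization controls, 6 members were past 2-fold on each side (16.7% each, against 4.90% higher and 8.96% lower over all genes), and the median of all genes moved from 0.08 to -0.20. Fewer cells of a type and less RNA per cell cannot be told apart in such a sample.

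**Figure D1:**
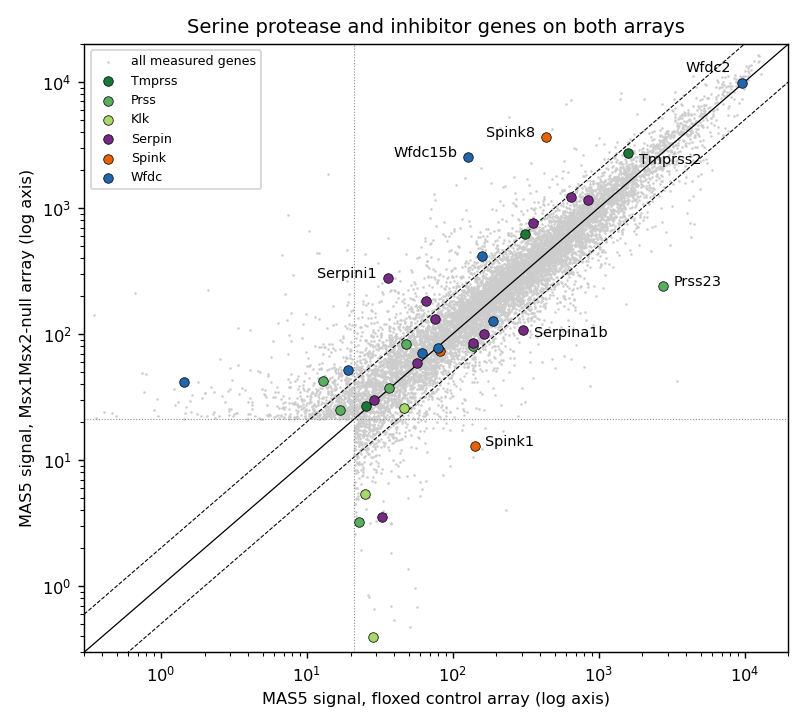
MAS5 signal of each measured member gene on the floxed control array (x axis, log scale) and the Msx1Msx2-null array (y axis, log scale), coloured by family, over all 11662 measured genes in grey. The solid line marks equal signal, dashed lines 2-fold, and dotted lines the floor of 21.1; Wfdc15b, Spink8 and Serpini1 lie far above the dashed lines and Prss23 and Spink1 far below.

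Prss23 had the largest difference among proteases with signal on both arrays. It encodes a secreted serine protease that has been described in the ovary and other reproductive tissues. Its 3 probe sets read 2753, 1191 and 98.1 (control) and 242, 356 and 39.5 (null), so all 3 were lower in the null. The sizes were unequal: 11.4-fold, 3.34-fold and 2.48-fold lower (log2 -3.51, -1.74 and -1.31). Only the last of these probe sets has an identifier without the mark of shared or alternative sequence, and with it alone the gene was 2.48-fold lower. The direction was thus the same at all 3 probe sets, and the size differed between them.

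Of the 6 other measured Prss genes, none passed 2-fold, and 3 of them (Prss2, Prss29 and Prss53) reached the floor on 1 array alone, so their differences are bounds. Prss2, a trypsinogen of the pancreas, had 1 measured probe set of 4, marked as shared, at 22.8 (control) and 3.24 (null). Its bound was -0.11, and it passed 2-fold lower with the floor at the 33rd percentile and with a pseudocount of 16. Prss53 read 17.1 and 24.9, for a bound of 0.24. Prss22, tryptase epsilon, an airway and epithelial protease, read 137 (control) and 80.8 (null; log2 -0.76), and with the spike-in scaling it passed 2-fold (-1.05). Prss36, a protease with several catalytic domains in 1 chain, read 48.3 and 83.8 (0.79). Prss12, neurotrypsin, which cuts the matrix protein agrin, stood at 37.0 and 37.5 (0.02), and agrin itself, Agrn, at 1020 and 1362 (0.42).

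Prss29 encodes the partner of Prss28 in the pair of implantation serine proteinases that glands secrete. It was below the floor in the control, at 13.1, and read 42.2 in the null, which gives a bound of 1.00 on the log2 scale that falls just short of 2-fold. Its other 2 probe sets were below the floor on both arrays, at 0.848 and 3.39 and at 7.73 and 2.87. With array medians, quantile normalization, loess, the floor at the 33rd percentile or a pseudocount of 16 it passed 2-fold. Markers of glandular epithelium outside the member families moved in different directions: 5 of 6 were measured, 2 were at least 2-fold higher and none lower, and their summed signal was 12326 (control) and 9120 (null). Foxa2, the gland transcription factor, read 23.0 and 55.1, the gland chemokine Cxcl15 42.2 and 194, and Lif 37.97 and 48.05 (log2 0.34). By contrast, Sox17 read 9592 and 7260 and Prom1 2621 and 1554. These 2 bright genes make up most of the summed signal of the list, 12326 (control) and 9120 (null). Their part in the signals of Prss29 and of the Spink genes was not tested.

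All 3 measured membrane-anchored Tmprss genes were above 0, but none reached 2-fold. Tmprss2 encodes a protease of the apical membrane of many epithelia that responds to androgen in the prostate. Its 4 probe sets read 1603, 918, 238 and 32.7 (control) and 2713, 1110, 395 and 23.95 (null). The log2 differences were 0.76, 0.27, 0.73 and -0.45, so 3 were above 0 and the dimmest was below. Tmprss4, an epithelial protease that can activate the epithelial sodium channel, read 312 and 621, just short of 2-fold (log2 0.99). It passed 2-fold with array medians and with loess and stood at 0.70 with the spike-in scaling. Tmprss6, which acts in the liver on the hepcidin pathway of iron balance, was close to the floor at 25.4 and 26.7 (0.07).

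Kallikreins were near the floor throughout. Klk1, the tissue kallikrein that frees kinins from kininogen, had 4 measured probe sets, at 46.6, 38.2, 27.3 and 25.0 (control) and 25.9, 24.4, 8.16 and 25.0 (null). The first 3 carry the mark of sequence shared with other genes and were lower, and the last, which does not, gave a log2 difference of 0.00. Klk11 read 25.1 (control) and 5.42 (null), and Klkb1, plasma kallikrein, 28.6 and 0.393. Both cross the floor, so their bounds are only -0.25 and -0.43, and with the floor at the 33rd percentile they were -1.54 and -1.73. No Klk gene was measured in the null alone. A probe set outside the rule, because it names Klk1b9 and Klk1b22 together, read 25.8 (control) and 40.9 (null).

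Serpins are given by clade. Clade a holds the secreted inhibitors typical of plasma, and 1 of its 14 members was measured. Serpina1b, a mouse copy of alpha-1 antitrypsin, the main plasma inhibitor of neutrophil elastase, was 2.82-fold lower in the null, at 303 and 108 (log2 -1.49), and its second probe set was 2.35-fold lower, at 218 and 92.9. Both probe sets are marked as sharing sequence with other genes. A further probe set, outside the rule because it names Serpina1e, Serpina1c and Serpina1b together, read 106 and 101, and one naming Serpina1d and Serpina1a read 4.44 and 1.92. The copies are near-identical, so which of them was lower is uncertain.

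Clade b holds serpins that stay inside the cell, and 8 of 18 were measured. Serpinb8, which can inhibit furin, was the only one past 2-fold: its 2 probe sets read 66.1 and 25.0 (control) and 183 and 108 (null; 2.77-fold and 4.30-fold higher, log2 1.47 and 2.11). Furin, its candidate target, read 162 and 133 (-0.28). Serpinb6a, an inhibitor of cathepsin G and trypsin-like enzymes, read 851 and 1163 (0.45), whereas its relative Serpinb6b was lower at 164 and 99.8 (-0.71) and Serpinb6e stood at 57.0 and 59.1 (0.05). Serpinb1a, an inhibitor of neutrophil elastase, was on the lower side at 138 and 85.5 (-0.69). Serpinb9, the inhibitor of granzyme B, read 76.2 and 132 at 1 probe set and 33.8 and 40.8 at the other (0.79 and 0.27), and granzyme B itself, Gzmb, read 27.6 and 97.6 (1.82). Serpinb5, maspin, which has no inhibitory activity, read 29.2 and 30.1 (0.04). Serpinb12 crossed the floor downwards, from 32.6 to 3.55, for a bound of -0.63.

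Serpini1, neuroserpin, an inhibitor of tissue plasminogen activator, had the largest difference among serpins. Its 2 measured probe sets read 36.1 and 27.1 in the control, not far above the floor, and 278 and 80.2 in the null. The gene was thus 7.69-fold higher at the first (log2 2.94) and 2.96-fold higher at the second (1.56). With the floor at the 67th percentile, above the control signal, the first was a bound of 1.93. A further probe set was below the floor on both arrays, at 0.293 and 7.80. Tissue plasminogen activator, Plat, read 3293 (control) and 2797 (null; -0.24). Urokinase, Plau, and plasminogen, Plg, were below the floor on both arrays.

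The 2 remaining measured serpins do not inhibit proteases. Serpinh1, the collagen chaperone of the endoplasmic reticulum, read 356 and 358 (control) and 758 and 660 (null) at its 2 probe sets (2.13-fold and 1.85-fold higher). It fell short of 2-fold with the spike-in scaling (log2 0.80) and with the median over its probe sets (0.99). Serpinf1, which encodes the anti-angiogenic pigment epithelium-derived factor, read 648 and 276 (control) and 1221 and 573 (null; 0.91 and 1.06), on either side of 2-fold. Both genes are known from collagen-producing stroma. Of the 12 measured stromal markers 11 were above 0, none at least 2-fold, with a median of 0.54. Col1a2 read 1134 and 2062 (0.86) and Vim 1023 and 1601 (0.65). Dcn, the stromal marker with the highest signal, read 4213 and 3877 (-0.12), and Lum read 520 and 524 (0.01). Of 8 measured smooth muscle markers 6 were at least 2-fold higher (7.73% of all genes were), 3 of them (Myh11, Cnn1 and Actg2) as bounds. The median of the 8 was 1.25, and the summed signal of the list was 407 (control) and 1194 (null). Des went the other way, at 54.45 and 41.25 (-0.40), and Lmod1 was below the floor on both arrays. Macrophage markers were all measured (8 of 8), with a median of 0.68, 6 above 0 and a summed signal of 5323 (control) and 5842 (null). Most of that sum was Cd14, at 4260 and 4085.5 (-0.06). The 4 measured mesothelial markers were all below 0, with a median of -0.60 and a sum of 1091 and 773. Among plasma and B cell markers Jchain read 71.5 and 978 (13.7-fold higher), and the median of the 4 measured was 0.23. The part of these cells in the serpin signals was not tested.

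**Figure D2:**
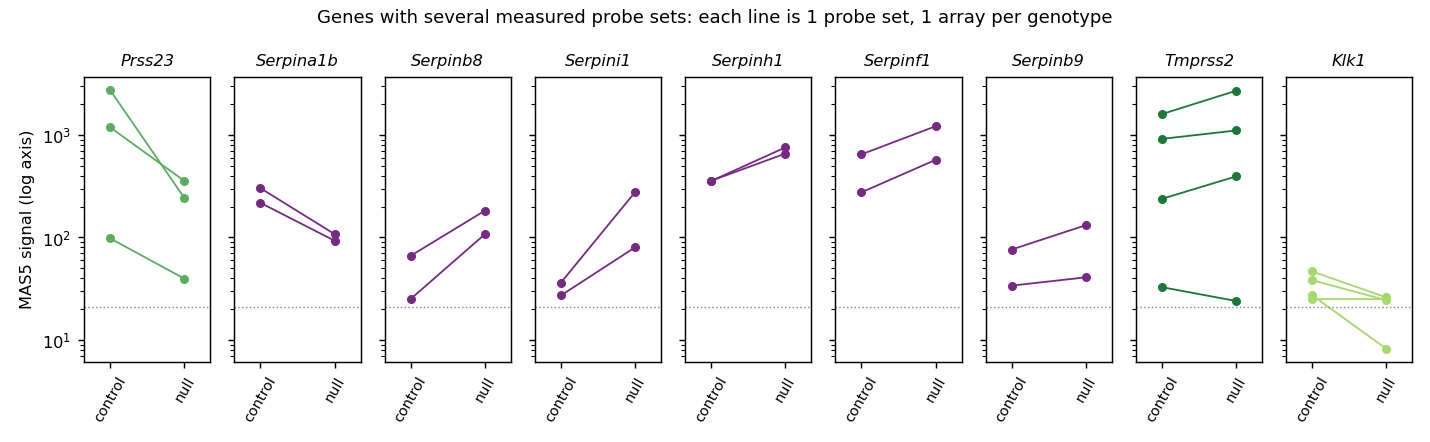
MAS5 signal (y axis, log scale) on the control and null arrays for the 9 member genes with more than 1 measured probe set; each line is 1 probe set and the dotted line is the floor of 21.1. All lines of Prss23 and Serpina1b run down and all lines of Serpinb8, Serpini1, Serpinh1, Serpinf1 and Serpinb9 run up, while those of Tmprss2 and Klk1 do not share 1 direction.

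The 3 measured Spink genes went different ways. Spink8, a Kazal-type gene, read 437 (control) and 3647 (null), 8.35-fold higher (log2 3.06). Spink1, the trypsin inhibitor of pancreatic juice and of several reproductive epithelia, known in the mouse also as Spink3, read 141 (control) and 13.0 (null). As the null signal is below the floor, Spink1 was at least 6.69-fold lower, and with the floor at the 67th percentile the bound was -0.96, short of 2-fold. Spink12 stood between them at 82.4 and 73.6 (-0.16). Each of these genes has 1 measured probe set, so no second probe set bears on the sizes. Spink2, Spink4, Spink5 and Spink10 were below the floor on both arrays.

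Among members with signal on both arrays the largest difference was in a Wfdc gene. Wfdc15b, a whey acidic protein gene, read 128 (control) and 2550.5 (null), 20.0-fold higher (log2 4.32), with 1 probe set. Wfdc18, known also as Expi, read 160 and 418, 2.62-fold higher (1.39), by a probe set marked as shared. Wfdc3 was at least 2.47-fold higher, from 19.4, just below the floor, to 52.2, but its other probe set was below the floor on both arrays at 15.6 and 7.01. Wfdc3 fell short of 2-fold with a pseudocount of 16 (log2 0.95) and was not measured with the floor at the 67th percentile. Wfdc12 was below the floor in the control at 1.44 and read 42.0 in the null, and its bound of 0.99 was just short of 2-fold. It passed 2-fold with array medians, quantile normalization, the floor at the 33rd percentile and a pseudocount of 16.

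The other Wfdc genes differed less. Wfdc2, a secreted product of many epithelia of the genital tract and airways, was almost equal on the arrays, at 9555 (control) and 9831 (null; log2 0.04). Wfdc1, a growth-inhibitory matrix protein, read 80.1 and 77.4 (-0.05) and Wfdc17, an inhibitor made by macrophages, 61.9 and 71.0 (0.20). Wfdc6a was on the lower side at 189 and 127 (-0.58). The family median was 0.60, and it ran from 0.38 to 0.66 under the 4 other scalings, of which the spike-in scaling lowers each difference measured on both arrays by 0.29. It depended on the floor: with the floor at the 33rd percentile it was 0.42 over 10 genes, and at the 67th 0.04 over 5.

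**Figure D3:**
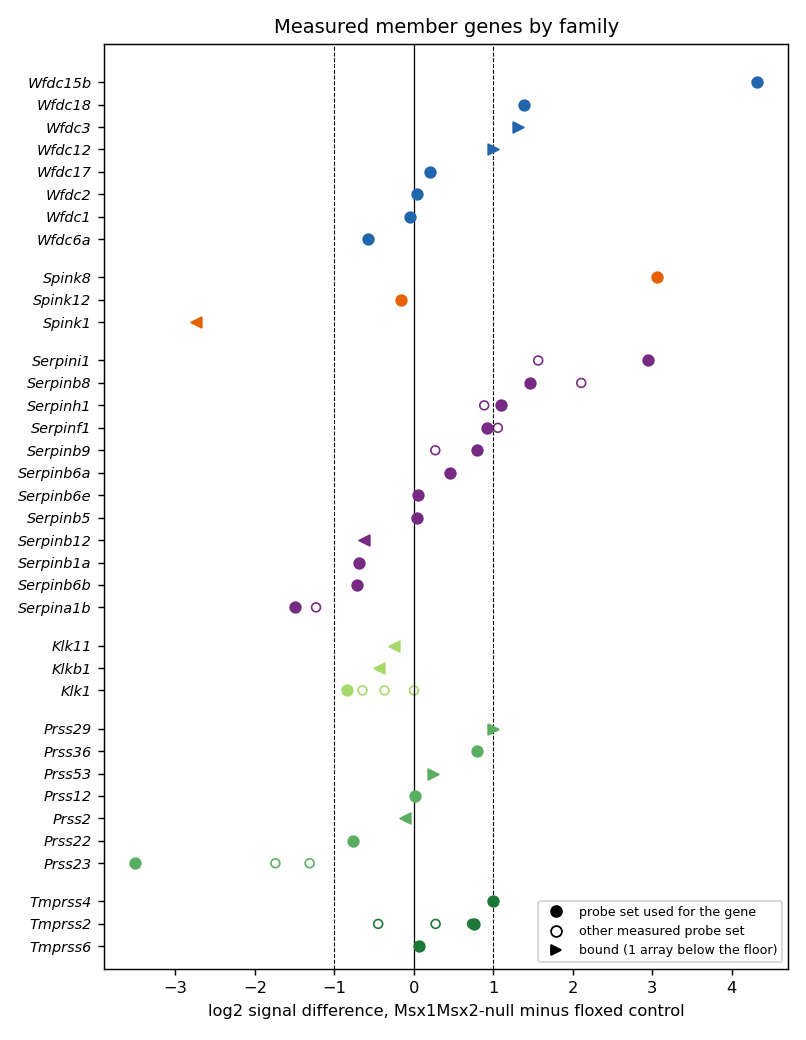
Log2 signal difference, null minus control (x axis), for the 36 measured member genes grouped by family; filled circles are the probe set used for the gene, open circles its other measured probe sets, and triangles bounds where 1 array was below the floor. Dashed lines mark 2-fold: 7 genes lie at or beyond it on the higher side and 3 on the lower side.

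Many Wfdc genes lie side by side on mouse chromosome 2 together with genes of semen proteins and Kunitz-type inhibitors. In the RefSeq annotation of GRCm38.p6 the stretch from Wfdc5 to Wfdc3 holds 32 protein-coding genes, of which 22 have a probe set of their own and 11 were measured. Wfdc15b and Wfdc3, the latter as a bound, were the 2 at least 2-fold higher, and none was at least 2-fold lower. Over all measured genes 7.73% were higher and 4.75% lower, so with 11 genes these counts say little about the stretch. Wfdc15a, next to Wfdc15b in gene order, was below the floor on both arrays at 2.11 and 0.928. Slpi, the secretory leukocyte protease inhibitor, with the same domain, read 131 and 224 (log2 0.77), while Eppin, which joins a Wfdc and a Kunitz domain, read 292 and 195 (-0.58), close to its neighbour Wfdc6a. The syndecan gene Sdc4 in the same stretch read 2805 and 3229 (0.20). Wfdc12, near Wfdc15b, read 1.44 and 42.0. As its control signal was below the floor, only the bound of 0.99 can be given, and how its difference compares with that of Wfdc15b cannot be told. The measured neighbours with signal on both arrays, among them Slpi, Wfdc6a, Eppin and Sdc4, were within 2-fold. Wfdc18 and Wfdc17 lie next to each other on chromosome 11, at 1.39 and 0.20.

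**Figure D4:**
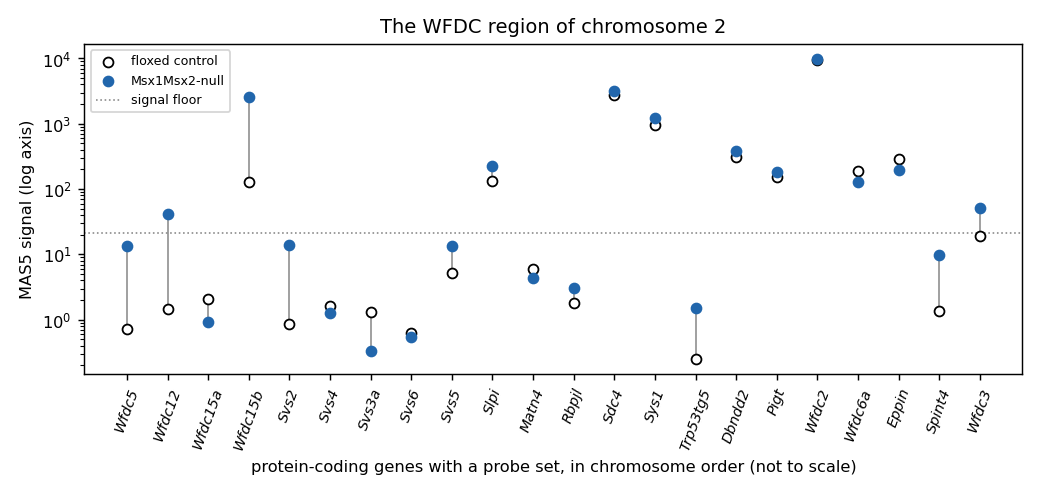
MAS5 signal (y axis, log scale) of the 22 protein-coding genes with a probe set between Wfdc5 and Wfdc3 on chromosome 2, in gene order and not to scale; open circles are the floxed control array, filled circles the Msx1Msx2-null array, and the dotted line the floor of 21.1. Wfdc15b reads 128 and 2550.5, while Wfdc2 is nearly equal at 9555 and 9831.

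Related genes outside the families gave a mixed picture. Of 9 measured genes around matriptase, an activator at the epithelial surface, none reached 2-fold and the median was -0.07. Matriptase itself, St14, read 1662 (control) and 1309 (null; log2 -0.34), and its Kunitz-type inhibitors Spint1 and Spint2 read 769 and 686 (-0.16) and 4896 and 6190 (0.34). Epcam, an adhesion protein that matriptase can cut, stood at 5201 and 5000.0 (-0.06).

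Of 12 measured genes of plasminogen activation and coagulation, 2 passed 2-fold on the higher side and 1 on the lower side, and the median was 0.21. Hgfac, the activator of hepatocyte growth factor, read 23.2 and 89.5 (log2 1.95), Procr, the receptor of protein C, 27.6 and 88.5 (1.68), and Tfpi, the tissue factor pathway inhibitor, 54.7 and 25.9 (-1.08). Anxa2, a docking protein for plasminogen activation, read 2219 and 2553 (0.20).

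Other serine proteases had 11 measured genes, of which 2 passed 2-fold, both higher, and the median was 0.28. Htra1, a secreted protease of the matrix, read 106 and 286 (log2 1.43), and Gzmb was the other. Reln, the matrix protein reelin, read 285 and 232 (-0.30). Dpp4, a membrane peptidase, just missed the threshold at 347 and 682 (0.98). The mast cell proteases Cma1, Mcpt4, Tpsab1 and Tpsb2 were below the floor on both arrays. Of the neutrophil proteases Ctsg, Elane and Prtn3 the same was true. The NK cell markers measured were 5 of 6, with a median of 0.29.

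Other protease inhibitors had 14 measured genes, and the 3 past 2-fold were all higher, around a median of 0.09. Cst3, cystatin C, an inhibitor of cysteine proteases, read 577 and 1381 (log2 1.26), Fstl1, a secreted protein with a Kazal-like domain, 141 and 308 (1.13), and A2m, a broad protease trap, read 11.5, below the floor, and 81.1, at least 3.84-fold higher. The metalloproteinase inhibitors Timp2 and Timp3 were nearly equal, at 466 and 456 and at 606 and 625. Pebp1, a phospholipid-binding protein with inhibitor activity, read 4164 and 4364 (0.07). For these 4 lists the background is the same 7.73% and 4.75% of all genes.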

How the data were processed

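The 2 arrays were 1 of floxed control and 1 of Msx1Msx2-null uterine epithelium. The authors deposited linear signal intensities; the submitters' processing notes name MAS5 and Affymetrix Expression Console 1. Their 2% trimmed mean was 150.001 on both arrays, so a difference in total RNA per cell cannot be seen. Detection calls were not used. Labelled RNA came from 100 ng of total RNA with a 3′ kit, per the labels' protocols, which also conflict in naming stromal cells at the extraction step. That text gives stromal cells from 4 mice and a Qiagen kit, while the cell type field, followed here, says epithelial. The 3′ to 5′ signal ratio of Actb, a sign of RNA integrity, was 1.62 (control) and 1.56 (null).

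Gene names are those of the platform annotation, where 34958 of 35890 probe sets name 1 gene and 932 several; all 120 member symbols matched RefSeq. Signals below the floor were set to it, and log2 was taken. A gene was represented by its brightest probe set (mean log2 signal). Genes were named if they differed at least 2-fold, were among the 3 with the highest signal of their family or the 2 nearest to 0. The list members named are those at least 2-fold different and the 2 with the highest signal. Further genes were chosen after their values were seen: Serpinb6b, Serpinb1a, Serpinb9, Serpinb12, Prss2, Prss28, Prss29, Prss53, Wfdc6a, Wfdc12, Wfdc15a, Wfdc17, Eppin, Slpi, Furin, Plau, Plg, St14, Sdc4, Timp2, Timp3, Spint1, the marker genes given with values and the genes listed only as below the floor. The members and lists were chosen with earlier results of these data known. Scripts (Python 3.11.15, numpy 2.4.6, pandas 2.3.3, statsmodels 0.14.6) were tested on simulated data. Alternatives covered scaling (array medians, quantile, loess with span 0.3, spike-in), floors, a pseudocount of 16, thresholds and probe set choice. The number of arrays, 1 per genotype, limits the precision.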

Additional observations from a re-analysis of the deposited data

How the results depend on the processing

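Of 219 recalculated differences, for the 26 member genes that the rule for named genes takes, under 9 alternatives, 208 stayed on the same side of 2-fold, 4 fell short of it, 7 came to pass it and none that passed 2-fold changed sign. The count of 7 higher and 3 lower members was 10 and 3 when arrays were scaled to their medians (all genes 8.64% and 4.06%). It was 9 and 3 under quantile normalization (all genes 8.32% and 4.45%) as well as loess (8.49% and 4.33%). The spike-in scaling gave 6 and 6 (all genes 4.90% and 8.96%). With the floor at the 33rd percentile 67 members were measured, and the count was 10 and 9 (all genes 9.15% and 5.41%). With the floor at the 67th percentile 22 were measured, and it was 6 and 2 (all genes 5.48% and 4.04%). A pseudocount of 16 and no floor gave 8 and 6 (all genes 6.59% and 3.98%). The median over probe sets gave 6 and 3 (all genes 6.89% and 4.42%). Without shared or alternative probe sets 28 were measured, and it was 5 and 2 (all genes 7.68% and 5.47%). Other members named crossed 2-fold as well: Prss29 under 5 alternatives, Wfdc12 under 4, Serpinb12 and Prss2 under 2 each and Serpinb6b under 1. At 1.5-fold 14 were higher and 8 lower, and at 3-fold 3 and 2. The shares of all genes were not taken at these 2 thresholds, so these counts have no background. Under all 9 alternatives Wfdc15b, Spink8, Serpini1 and Serpinb8 were at least 2-fold higher and Prss23 at least 2-fold lower, with log2 ranges of 4.03 to 4.39, 2.77 to 3.13, 1.93 to 3.02, 1.18 to 1.79 and -3.80 to -1.31. The member median ran from -0.23 with the spike-in scaling to 0.33 with the floor at the 67th percentile. No paired analysis was possible because there was 1 array per genotype, which also left no replicate to leave out. Signal near the floor limits what can be said of the 84 unmeasured members.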
